A study of Mus musculus with 30 samples.

Results

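The genes described here are 9 components of adrenergic, muscarinic and cAMP signalling in the mouse left ventricle: the receptors Adrb1, Adra1a, Adra1b and Chrm2, the receptor kinase Grk5, the adenylyl cyclases Adcy5 and Adcy6, and the phosphodiesterases Pde3a and Pde4d. They were chosen by name with earlier results of these data known, the rule itself using no measured value, and are 9 of the 49671 genes in the table of the peptide study and 9 of the 56386 genes obtained for the antibody study. All 9 passed the filter on low counts in both studies.

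RNA sequencing was performed on 30 left ventricles from male C57BL6J mice. In the peptide study, 7 mice administered recombinant human Aβ42, the aggregation-prone 42-residue amyloid beta peptide, were compared with 7 mice administered ScrAβ42, the same residues in scrambled order. Peptides were injected daily for 4 weeks from 12 weeks of age by the labels and from 10 to 12 weeks by the methods of the study, and the labels give 1 mg per day where the methods give micrograms. In the antibody study, 8 mice administered 3D6, an antibody that neutralises Aβ42, were compared with 8 mice administered an isotype control antibody. The methods of the study describe both antibody groups as mice fed a high fat diet and injected weekly through the diet period, whereas the deposited design text describes them as mice also given Aβ42, so the source of Aβ42 in these mice cannot be told apart here. Each heart came from a separate mouse and is named as labelled, by its group (Abeta42, ScrAbeta42, 3D6 or Con for control antibody) and the number of the mouse. The antibody mice were 12 weeks old at baseline and were fed the diet for 4 months. All mice are labelled wild type, and the peptide given was human. The questions addressed were whether the 9 genes differed with Aβ42, and whether they differed with its antibody.

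Noradrenaline and adrenaline act on the β1-adrenergic receptor of cardiomyocytes, which couples through the stimulatory G protein to adenylyl cyclase, raises cAMP and activates protein kinase A, so that the heart beats faster and harder and relaxes faster. Acetylcholine from the vagus acts on the M2 muscarinic receptor, which couples to the inhibitory G protein and opposes this. Phosphodiesterases degrade cAMP in local pools, receptor kinases mark occupied receptors for arrestin binding, and the α1 receptors signal through Gq and calcium rather than cAMP.

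Levels are given as CPM (counts per 1000000 counts of the library) after TMM normalisation, and group differences as log2 fold changes from edgeR's quasi-likelihood test with their standard error (SE) and Benjamini-Hochberg adjusted p. Total counts per heart ranged from 4478991 to 6015767 in the peptide study and from 6397192 to 8310478 in the antibody study. At an adjusted p under 0.05, edgeR called 0% of 11985 tested genes in the peptide study and 0% of 12274 in the antibody study. By DESeq2 the counts were 12 and 0 genes, and by limma-voom 0 and 0. At an unadjusted p under 0.05 stood 6.51% of genes in the peptide study (780 genes) and 3.64% in the antibody study (447 genes, 162 higher and 285 lower with 3D6, or 91 and 438 when scaled to total counts). Ventricular markers were high in all hearts, with 6 genes summing to between 38532 and 82768 CPM.

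Several hearts stood apart. The sum of 5 atrial markers (Sln, Myl7, Myl4, Bmp10 and Mybphl) ranged from 3.81 to 3652 CPM with ScrAβ42 and from 12.3 to 8387 CPM with Aβ42. It exceeded 100 CPM in 5 of 7 Aβ42 hearts and 1 of 7 ScrAβ42 hearts, ScrAbeta42_3448. All 5 tested atrial markers had a log2 fold change above 0 with Aβ42, and 1 of the 5, Bmp10, had an unadjusted p under 0.05. Bmp10 averaged 1.46 CPM with ScrAβ42 and passed the filter only through the Aβ42 group. There it was at 1205 CPM in Abeta42_3455 against a group median of 0.578 CPM, so its difference rests largely on that heart. With the antibodies the sum ranged from 0.819 to 2768 CPM with control antibody and from 1.05 to 666 CPM with 3D6, and exceeded 100 CPM in 2 of 8 and 4 of 8 hearts. All 4 atrial markers tested there had a log2 fold change below 0 with 3D6, with a median of -0.97 and none at an unadjusted p under 0.05. The control sum of 2768 CPM was that of Con_15 alone, and the next control heart, Con_11, was at 159 CPM. The median sum ran the other way, at 2.87 CPM with control antibody and 98.2 CPM with 3D6. Abeta42_3457 (Aβ42) had the highest atrial sum, an adipose marker sum of 1331 CPM against 482 to 832 CPM in the other 13 hearts, and the lowest median correlation with other hearts of its study, 0.873. Con_22 (control antibody) had the lowest of its study, 0.909, an adipose sum of 954 CPM, and the lowest share of counts on mitochondrial genes, 25.9%. Its adipose sum was mostly Fabp4, at 922 CPM, with Cidea at 32.4, Ucp1 at 0.284, Plin1 at 0.142 and Adipoq and Lep at 0 CPM. In Abeta42_3457 Ucp1 was at 247, Plin1 at 84.5 and Adipoq at 60.4 CPM. In bulk tissue, fewer cells of a type and less RNA per cell cannot be told apart.

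None of the 9 genes passed the adjusted threshold in either study, with adjusted p from 0.692 to 0.987 for Aβ42 and from 0.946 to 0.968 for 3D6. At an unadjusted p under 0.05 stood 2 of 9 genes with Aβ42 (Adra1b lower, Pde4d higher) against the 6.51% of all genes, and 2 of 9 with 3D6 (Adra1a and Adra1b, both higher) against 3.64% of all genes in either direction and 1.32% in the higher direction. The groups overlapped for all 9 genes in both studies. With Aβ42, 5 of 9 genes had a log2 fold change above 0, with a median of 0.04, where 50.5% of all tested genes lay above 0 with a median of 0.00. With 3D6, 8 of 9 lay above 0 with a median of 0.24, where 47.4% of all tested genes lay above 0 with a median of -0.01. The mitochondrial share of counts had a median of 33.2% with 3D6 and 31.2% with control antibody, and with this share as a covariate 7 of 9 genes lay above 0 with a median of 0.03. The median of the 9 was 0.16 without 3D6_4. With Aβ42, it was -0.04 without the hearts of high atrial markers (sums over 100 CPM), with 3 of 9 above 0. The levels of the 8 genes other than Adcy6 moved together across the antibody hearts, so their directions are not independent of each other.

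**Figure D1:**
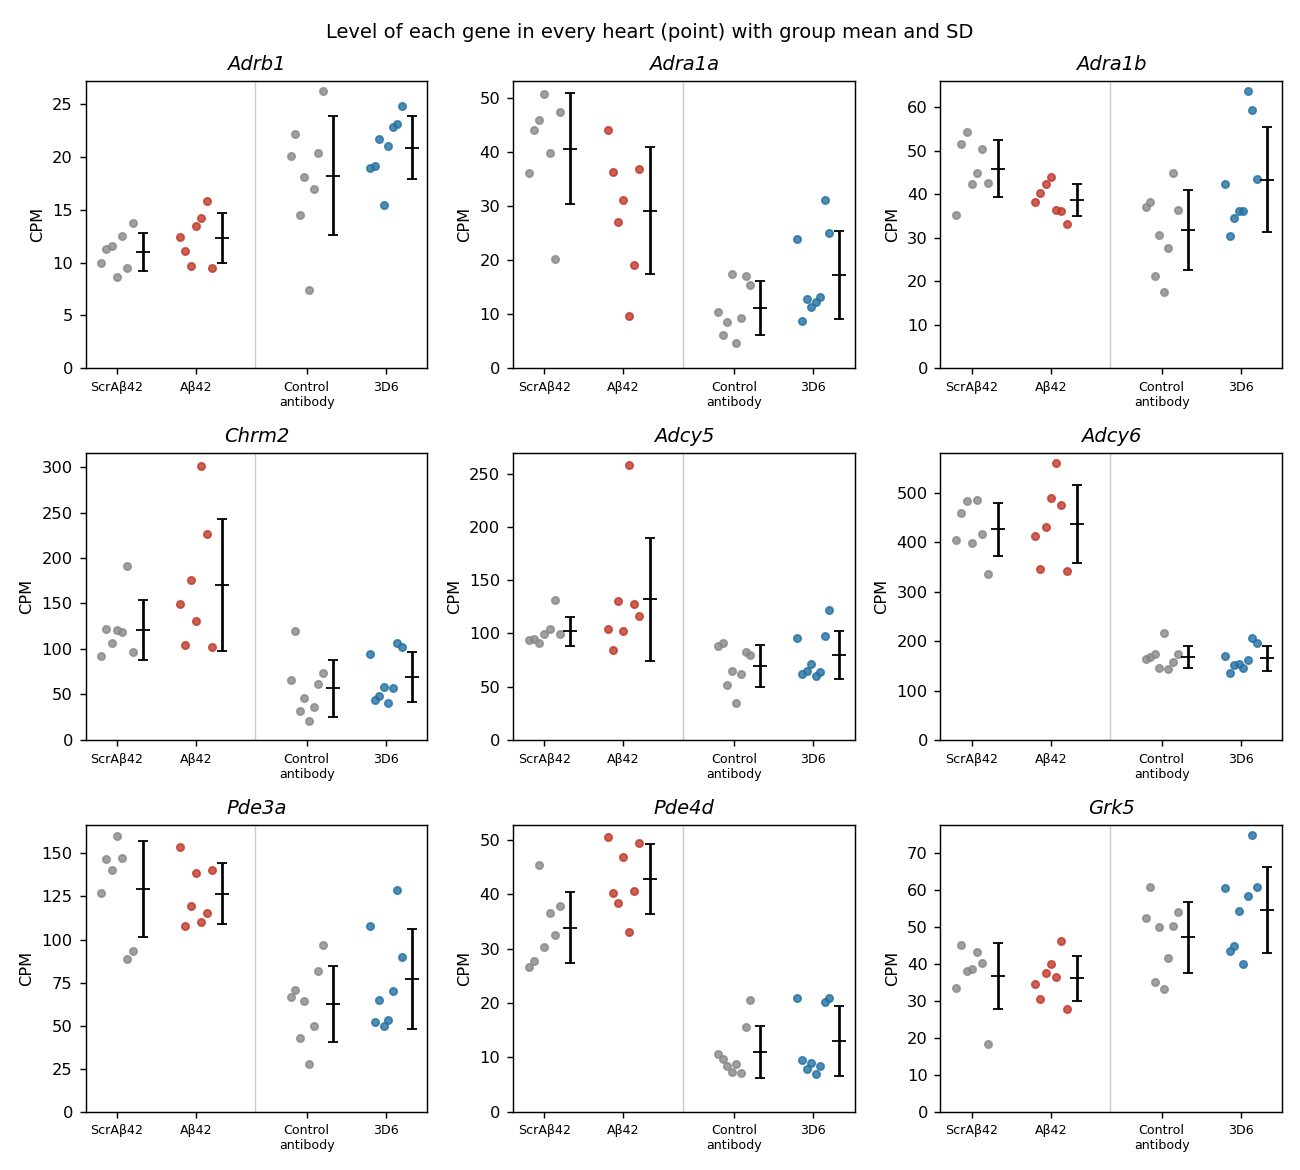
CPM of each gene (vertical axis, from 0) in every heart (points) of the 4 groups (horizontal axis), with the group mean and SD as bars beside the points. The groups of each study overlap for all 9 genes, and 1 Aβ42 heart reaches 302 CPM for Chrm2 and 258 CPM for Adcy5.

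**Figure D2:**
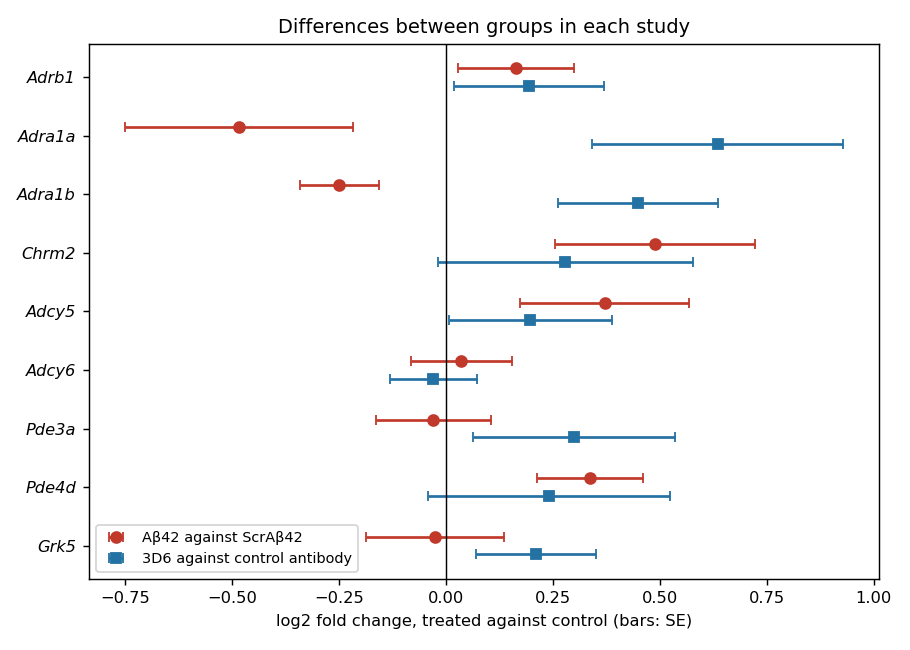
Log2 fold change (horizontal axis) with its SE for each gene, Aβ42 against ScrAβ42 as circles and 3D6 against control antibody as squares. Adra1a and Adra1b lie at -0.48 and -0.25 with Aβ42 and at 0.64 and 0.45 with 3D6.

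The β1-adrenergic receptor gene Adrb1 (chr19:56722199-56733113, plus strand, GRCm38) is read almost wholly as its single-exon transcript Adrb1-201, which held 99.9% of its estimated counts in the antibody study. Its level with ScrAβ42 was 8.60 CPM at lowest, 11.3 at the median and 13.7 at highest, and with Aβ42 it was 9.50, 12.4 and 15.8 CPM. Both groups covered nearly the same range, and 2 of 7 Aβ42 hearts were above all ScrAβ42 hearts. The log2 fold change was 0.16 ± 0.14 (SE, adjusted p = 0.867, edgeR), and 0.095 without Abeta42_3458. With control antibody it was 7.39, 19.1 and 26.3 CPM, and with 3D6 it was 15.4, 21.4 and 24.8 CPM. No 3D6 heart was above all controls, and the lowest control value belonged to Con_22. On the log2 scale the difference was 0.19 ± 0.18 (SE, adjusted p = 0.946, edgeR), 0.08 without Con_22, 0.33 without the hearts of high atrial markers and 0.05 with the mitochondrial share as a covariate.

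The promoter of Adrb1 is shown because the cAMP pathway it feeds ends on the cAMP response element. The window of 250 bases before to 50 after the RefSeq start (GRCm38.p6) lies at chr19:56721867-56722166, plus strand, and capitals mark TGACG, the core of that element, searched on both strands.

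Adrb1: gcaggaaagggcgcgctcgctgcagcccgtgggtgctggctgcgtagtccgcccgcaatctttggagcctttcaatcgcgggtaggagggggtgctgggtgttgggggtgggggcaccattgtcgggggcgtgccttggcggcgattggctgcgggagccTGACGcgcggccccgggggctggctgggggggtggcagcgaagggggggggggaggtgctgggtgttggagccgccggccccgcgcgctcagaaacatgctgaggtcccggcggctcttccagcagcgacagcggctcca

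TGACG occurred once, with its first base at position -90 from the start, and is part of no full TGACGTCA, the palindrome that contains it. Of 32851 promoter windows of the same length, 20.8% hold TGACG and 1.79% hold TGACGTCA on either strand. RefSeq windows were found for 6 of the 9 genes, and Adrb1 was the only one of these 6 with TGACG.

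The α1A-adrenergic receptor gene Adra1a (chr14:66635251-66771168, plus strand) varied widely between hearts. With ScrAβ42 it ranged from 20.2 CPM over a median of 44.1 to 50.7 CPM, and with Aβ42 from 9.72 over 31.2 to 44.1 CPM. The lowest ScrAβ42 heart was ScrAbeta42_3448 and the lowest Aβ42 heart Abeta42_3457, which had the highest atrial sums of their groups. Of 7 Aβ42 hearts, 6 lay below the ScrAβ42 median and 2 below all ScrAβ42 hearts. The fitted log2 fold change was -0.48 ± 0.27 (SE, unadjusted p = 0.0883, adjusted p = 0.787, edgeR), -0.08 with the atrial marker score as covariate, and -0.39 (unadjusted p = 0.0115, adjusted p = 1) without the hearts of high atrial markers, which left 2 Aβ42 and 6 ScrAβ42 hearts.

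With control antibody Adra1a ranged from 4.69 CPM over 9.81 to 17.5 CPM, and with 3D6 from 8.64 over 12.9 to 31.1 CPM. Hearts 3D6_4, 3D6_7 and 3D6_12 were above all controls, at 31.1, 24.9 and 23.95 CPM, and the other 5 lay within the control range. The log2 fold change was 0.64 ± 0.29 (SE, unadjusted p = 0.0430, adjusted p = 0.946, edgeR). It was 0.46 without 3D6_4 (unadjusted p = 0.117, edgeR), 0.44 without the hearts of high atrial markers (unadjusted p = 0.280, edgeR) and 0.32 with the mitochondrial share as a covariate (unadjusted p = 0.124, adjusted p = 1, edgeR). The unadjusted p stayed under 0.05 in 8 of 16 fits that each left out a mouse.

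The α1B-adrenergic receptor gene Adra1b (chr11:43774606-43901210, minus strand) encodes the other α1 receptor among the 9. With ScrAβ42 it ranged from 35.2 CPM over 44.9 to 54.2 CPM, and with Aβ42 from 33.2 over 38.2 to 44.1 CPM. All 7 Aβ42 hearts lay below the ScrAβ42 median and 1 below all ScrAβ42 hearts. On the log2 scale the difference was -0.25 ± 0.09 (SE, unadjusted p = 0.0168, adjusted p = 0.701, edgeR). It lay between -0.30 and -0.21 over the 14 fits that each left out a mouse, with an unadjusted p under 0.05 in all 14. It was -0.23 scaled to total counts (unadjusted p = 0.0680, edgeR), -0.26 with the atrial marker score as covariate (unadjusted p = 0.0314, adjusted p = 0.600, edgeR) and -0.10 (unadjusted p = 0.489, adjusted p = 1) without the hearts of high atrial markers.

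With control antibody Adra1b ranged from 17.5 CPM over 33.5 to 44.8 CPM, and with 3D6 from 30.3 over 39.3 to 63.7 CPM. Hearts 3D6_24 and 3D6_4 were above all controls, at 63.7 and 59.4 CPM, and 7 of 8 lay above the control median. The fitted log2 fold change was 0.45 ± 0.19 (SE, unadjusted p = 0.0264, adjusted p = 0.946, edgeR), 0.35 without 3D6_24 (unadjusted p = 0.0705, edgeR) and 0.29 with the mitochondrial share as a covariate (unadjusted p = 0.0612, adjusted p = 1, edgeR). It was 0.66 without the hearts of high atrial markers (unadjusted p = 0.0306, edgeR). The unadjusted p stayed under 0.05 in 13 of 16 fits that each left out a mouse. Whether the directions of the α1 receptors differed between the studies was not tested, as the studies were normalised separately.

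The transcripts of Adra1b start at 2 widely separated sites. In the antibody study, Adra1b-203, which starts at 43901210, held 39.5% of the estimated counts of the gene, and Adra1b-202 and Adra1b-204, which both start at 43836332, held 31.5% and 29.0%. The annotation gives the latter pair the same sequence, so the split between them has no basis in the reads. The share of counts on the transcript from the distal start was 33.4 ± 17.6% with control antibody (SD, n = 8), from 0 to 58.8%. With 3D6 it was 41.9 ± 9.44% (SD, n = 8), from 25.6 to 52.7%. Adra1b-203 is 1764 bases long and Adra1b-202 and Adra1b-204 are 3047. The shares are not corrected for length and so do not measure how often each start is used. The ranges overlapped widely. Both promoter windows are shown because counts were assigned to transcripts from both starts. RefSeq places the starts 64748 bases apart, 27 and 157 bases upstream of the GENCODE starts, in the windows chr11:43901188-43901487 and chr11:43836440-43836739 (minus strand, GRCm38.p6). Capitals mark GATA, the letters bound by cardiac GATA factors, searched on both strands.

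Adra1b distal: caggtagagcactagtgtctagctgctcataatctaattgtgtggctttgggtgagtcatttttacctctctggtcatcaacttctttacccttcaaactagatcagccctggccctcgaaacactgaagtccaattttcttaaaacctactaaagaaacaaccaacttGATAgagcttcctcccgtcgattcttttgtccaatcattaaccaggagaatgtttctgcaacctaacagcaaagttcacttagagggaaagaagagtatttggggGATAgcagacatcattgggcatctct

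Adra1b proximal: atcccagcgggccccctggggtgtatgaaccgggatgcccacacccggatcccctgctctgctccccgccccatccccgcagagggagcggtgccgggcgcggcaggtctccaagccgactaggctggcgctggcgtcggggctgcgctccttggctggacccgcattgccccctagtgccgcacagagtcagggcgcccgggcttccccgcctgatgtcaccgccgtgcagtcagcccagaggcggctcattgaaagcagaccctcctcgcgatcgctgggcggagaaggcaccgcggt

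The distal window held GATA at 2 places, with first bases at -81 and 25 from the start, and the proximal window did not hold it. GATA occurs in 57.9% of all windows. The GC content was 42.3% in the distal and 71.3% in the proximal window, against a median of 52.7% over all windows.

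The M2 muscarinic receptor gene Chrm2 (chr6:36388084-36528414, plus strand) carries the vagal input to the pathway. With ScrAβ42 it ranged from 92.2 CPM over 118 to 191 CPM, and with Aβ42 from 102 over 149 to 302 CPM. The highest Aβ42 hearts were Abeta42_3457, Abeta42_3458 and Abeta42_3455, at 302, 227 and 176 CPM, and the highest ScrAβ42 heart was ScrAbeta42_3448, at 191 CPM. These 4 hearts also had the 4 highest atrial sums, from 3652 to 8387 CPM. The log2 fold change was 0.49 ± 0.23 (SE, unadjusted p = 0.0529, adjusted p = 0.762, edgeR), with an unadjusted p of 0.0388 by DESeq2 and 0.0310 in edgeR with no filter. It was 0.29 without Abeta42_3457, 0.64 without ScrAbeta42_3448 (unadjusted p = 0.0122, edgeR), 0.02 with the atrial marker score as covariate, and 0.10 without the hearts of high atrial markers (unadjusted p = 0.437, edgeR).

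Under the antibodies Chrm2 ranged from 20.9 CPM over 53.8 to 119 CPM with control antibody and from 40.6 over 57.9 to 107 CPM with 3D6. The lowest heart was Con_22 and the highest Con_15, a control heart with an atrial sum of 2768 CPM. On the log2 scale the difference was 0.28 ± 0.30 (SE, adjusted p = 0.946, edgeR), 0.16 without Con_22, 0.54 without Con_15 (unadjusted p = 0.0651, edgeR), 0.52 without the hearts of high atrial markers, and 0.02 with the mitochondrial share as a covariate.

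The receptor kinase gene Grk5 (chr19:60889749-61095968, plus strand), whose product phosphorylates occupied adrenergic receptors, showed little difference between peptide groups. With ScrAβ42 it ranged from 18.3 CPM over 38.7 to 45.1 CPM, and with Aβ42 from 27.7 over 36.3 to 46.0 CPM, with a log2 fold change of -0.02 ± 0.16 (SE, adjusted p = 0.987, edgeR). The lowest ScrAβ42 heart, ScrAbeta42_3449, stood alone, as the next was at 33.3 CPM. With control antibody it ranged from 33.3 CPM over 50.0 to 60.8 CPM, and with 3D6 from 39.8 over 56.2 to 74.7 CPM. The fitted log2 fold change was 0.21 ± 0.14 (SE, adjusted p = 0.946, edgeR), and 1 of 8 3D6 hearts, 3D6_4, was above all controls. The fold change on that scale was 0.13 without 3D6_4, 0.33 without the hearts of high atrial markers and 0.085 with the mitochondrial share as a covariate.

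Adcy5 (chr16:35154877-35305738, plus strand) and Adcy6 (chr15:98589973-98610076, minus strand) encode the main cardiac adenylyl cyclases, both inhibited by calcium and by the inhibitory G protein. Adcy5 ranged from 91.0 CPM over 99.2 to 132 CPM with ScrAβ42 and from 84.7 over 116.5 to 258 CPM with Aβ42. A single Aβ42 heart, Abeta42_3457, was above all ScrAβ42 hearts, and the next highest Aβ42 heart was at 130.2 CPM. The log2 fold change was 0.37 ± 0.20 (SE, unadjusted p = 0.0796, adjusted p = 0.778, edgeR), 0.12 without Abeta42_3457, and -0.06 without the hearts of high atrial markers. Adcy6 ranged from 336 CPM over 416 to 485 CPM with ScrAβ42 and from 343 over 431 to 560.0 CPM with Aβ42, with a log2 fold change of 0.04 ± 0.12 (SE, adjusted p = 0.970, edgeR).

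With control antibody Adcy5 ranged from 34.4 CPM over 72.3 to 91.3 CPM, and with 3D6 from 60.3 over 67.9 to 122 CPM. Hearts 3D6_7, 3D6_4 and 3D6_12 were above all controls, at 122, 97.2 and 95.5 CPM, while 5 of 8 lay below the control median. On the log2 scale the difference was 0.20 ± 0.19 (SE, adjusted p = 0.946, edgeR), 0.088 without 3D6_7 and 0.03 with the mitochondrial share as a covariate. Adcy6 ranged from 144 CPM over 166 to 216 CPM with control antibody and from 136 over 158 to 206 CPM with 3D6. The fitted log2 fold change was -0.03 ± 0.10 (SE, adjusted p = 0.968, edgeR), and the highest heart was Con_22, which was lowest for 7 of the other 8 genes.

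The phosphodiesterase genes were Pde3a (chr6:141249269-141507448, plus strand), whose product is inhibited by cGMP and acts near the sarcoplasmic reticulum, and Pde4d (chr13:108449948-109953461, plus strand), whose cAMP-specific product associates with β-adrenergic receptors and the ryanodine receptor. Pde4d ranged from 26.7 CPM over 32.5 to 45.3 CPM with ScrAβ42 and from 33.1 over 40.6 to 50.6 CPM with Aβ42. All 7 Aβ42 hearts lay above the ScrAβ42 median, and 3 of 7, Abeta42_3451, Abeta42_3460 and Abeta42_3456, lay above all ScrAβ42 hearts. The log2 fold change was 0.34 ± 0.12 (SE, unadjusted p = 0.0148, adjusted p = 0.692, edgeR). The unadjusted p was under 0.05 in all 14 fits that each left out a mouse, with log2 fold changes from 0.29 to 0.42, and the difference was 0.41 with the atrial marker score as covariate and 0.36 without the hearts of high atrial markers (unadjusted p = 0.0610, adjusted p = 1, edgeR). Pde3a ranged from 88.8 CPM over 140.2 to 160.1 CPM with ScrAβ42 and from 108 over 119.6 to 154 CPM with Aβ42, with a log2 fold change of -0.03 ± 0.13 (SE, adjusted p = 0.980, edgeR).

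Under the antibodies Pde4d ranged from 7.06 CPM over 9.25 to 20.6 CPM with control antibody and from 6.95 over 9.27 to 20.99 CPM with 3D6. In each group the values fell apart, with Con_8 and Con_3 at 20.6 and 15.6 CPM and 3D6_7, 3D6_12 and 3D6_4 at 20.99, 20.9 and 20.2 CPM, and no other heart above 10.7 CPM. These 5 hearts had the 5 highest shares of mitochondrial counts, from 33.9 to 37.8%. On the log2 scale the difference was 0.24 ± 0.28 (SE, adjusted p = 0.946, edgeR), 0.11 without 3D6_12, 0.43 without Con_8, 0.02 without the hearts of high atrial markers, and -0.04 with the mitochondrial share as a covariate. Pde3a ranged from 28.0 CPM over 65.3 to 96.7 CPM with control antibody and from 49.5 over 67.4 to 129 CPM with 3D6. 3D6_4 and 3D6_12 were above all controls, and the log2 fold change was 0.30 ± 0.24 (SE, adjusted p = 0.946, edgeR), 0.16 without 3D6_4 and 0.0066 with the mitochondrial share as a covariate.

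Per kilobase of transcript, weighted by the counts of each transcript in the antibody study, Adcy6 had the highest level of the 9 genes in both studies. In the peptide study it stood at 89.8 ± 13.5 CPM per kilobase (SD, n = 14), above all values of the next gene, Chrm2, at 25.7 ± 10.5. Then followed Adcy5 at 16.7 ± 6.18, Adra1b at 16.6 ± 2.51, Pde4d at 10.97 ± 2.22, Pde3a at 10.6 ± 1.86, Adra1a at 9.39 ± 3.26, Grk5 at 5.53 ± 1.11 and Adrb1 at 3.96 ± 0.716 (CPM per kilobase, SD, n = 14 each). From Chrm2 down, each gene overlapped the next in its range over hearts. Adcy5 was above Adra1b in only 4 of 14 hearts, so that their order by the mean was not that of most hearts. The order of the means differed between groups, as with ScrAβ42 Adra1b (18.1) lay above Adcy5 (14.6) and Adra1a (10.9) above Pde3a (10.7) and Pde4d (9.69), and with Aβ42 Adcy5 (18.8) lay above Adra1b (15.2) and Pde4d (12.2) above Pde3a (10.5) and Adra1a (7.85), in mean CPM per kilobase. Adrb1 was the lowest of the 9 here.

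In the antibody study Adcy6 again stood above all values of the next gene, at 34.7 ± 4.76 CPM per kilobase (SD, n = 16). The order below it was Adra1b at 14.8 ± 4.72, Chrm2 at 11.1 ± 5.10, Adcy5 at 10.6 ± 3.03, Grk5 at 7.72 ± 1.66, Adrb1 at 6.63 ± 1.54, Pde3a at 5.78 ± 2.15, Adra1a at 3.82 ± 1.95 and Pde4d at 3.43 ± 1.59 (CPM per kilobase, SD, n = 16 each). Each gene from Adra1b down overlapped the next, and Chrm2 was above Adcy5 in 7 of 16 hearts. With control antibody Pde4d (3.15) lay above Adra1a (3.00), and with 3D6 Adra1a (4.64) lay above Pde4d (3.71), in mean CPM per kilobase. Counts were deposited by gene for the peptide study and by transcript for the antibody study. The mitochondrial share was 12.9 to 22.2% in the peptide study and 25.9 to 37.8% in the antibody study. Levels are therefore set side by side only.

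Within a heart, the ratio of related genes is free of library scaling. The log2 ratio of counts (each plus 0.5) was compared by a two-sided exact permutation test of group means, 8 tests in all. The ratio of Pde3a to Pde4d was 1.92 ± 0.46 with ScrAβ42 and 1.57 ± 0.10 with Aβ42 (log2, SD, n = 7 each), and all 7 Aβ42 hearts lay below the ScrAβ42 median. The difference of -0.35 had an exact permutation p of 0.0728, or 0.583 adjusted over the 8 tests. The ratio of Adcy5 to Adcy6 was -2.06 ± 0.27 and -1.80 ± 0.37 (exact permutation p = 0.159, n = 7 each), that of Adra1a to Adra1b was -0.21 ± 0.52 and -0.54 ± 0.73 (exact permutation p = 0.373, n = 7 each), and that of Adrb1 to Chrm2 was -3.42 ± 0.49 and -3.70 ± 0.45 (exact permutation p = 0.301, n = 7 each), ScrAβ42 first. With the antibodies, the 4 differences were between -0.11 and 0.24 on the log2 scale, with exact permutation p between 0.351 and 0.659 (n = 8 each).

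The hearts of the antibody study differed in the 8 genes other than Adcy6 together. Of the 36 pairs of genes, 27 had a Pearson correlation above 0.5 over the 16 hearts, after each group's mean was removed from log2 CPM, and the median was 0.68. Without Adcy6, all 28 pairs lay between 0.37 and 0.93. Chrm2 correlated with Adcy5 at 0.93 and with Grk5 at 0.93. Every gene but Adcy6 correlated with the mitochondrial share of counts, from 0.65 for Chrm2 to 0.90 for Pde3a, whereas Adcy6 stood at 0.01. Con_22 had the lowest share, and the 5 hearts named above for Pde4d had the highest. These correlations are descriptions of hearts that share libraries, normalisation and, in part, tissue composition.

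In the peptide study the correlations were weaker. The median correlation of the 36 pairs over 14 hearts was 0.14, with 6 pairs above 0.5 and 3 below -0.5. Adra1a ran opposite to Chrm2 (-0.85) and Adcy5 (-0.88), while Chrm2 and Adcy5 ran together (0.83). Over the antibody hearts Adra1a and Adcy5 correlated at 0.68. With the mean log2 CPM of the atrial markers, Chrm2 correlated at 0.79, Adcy5 at 0.72 and Adra1a at -0.66 in the peptide study, against 0.49, 0.46 and -0.06 in the antibody study. With the mitochondrial share, they correlated at -0.70, -0.83 and 0.76 in the peptide study. With that share as a covariate, the log2 fold changes with Aβ42 were 0.49 for Chrm2 (unadjusted p = 0.00727, adjusted p = 0.297, edgeR), 0.33 for Adcy5 (unadjusted p = 0.00919, adjusted p = 0.314, edgeR) and -0.58 for Adra1a (unadjusted p = 0.00793, adjusted p = 0.299, edgeR). In that fit 1253 of 11985 genes had an unadjusted p under 0.05, against 780 without the covariate. With the atrial marker score as covariate instead, Chrm2, Adcy5 and Adra1a stood at 0.02, -0.01 and -0.08.

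**Figure D3:**
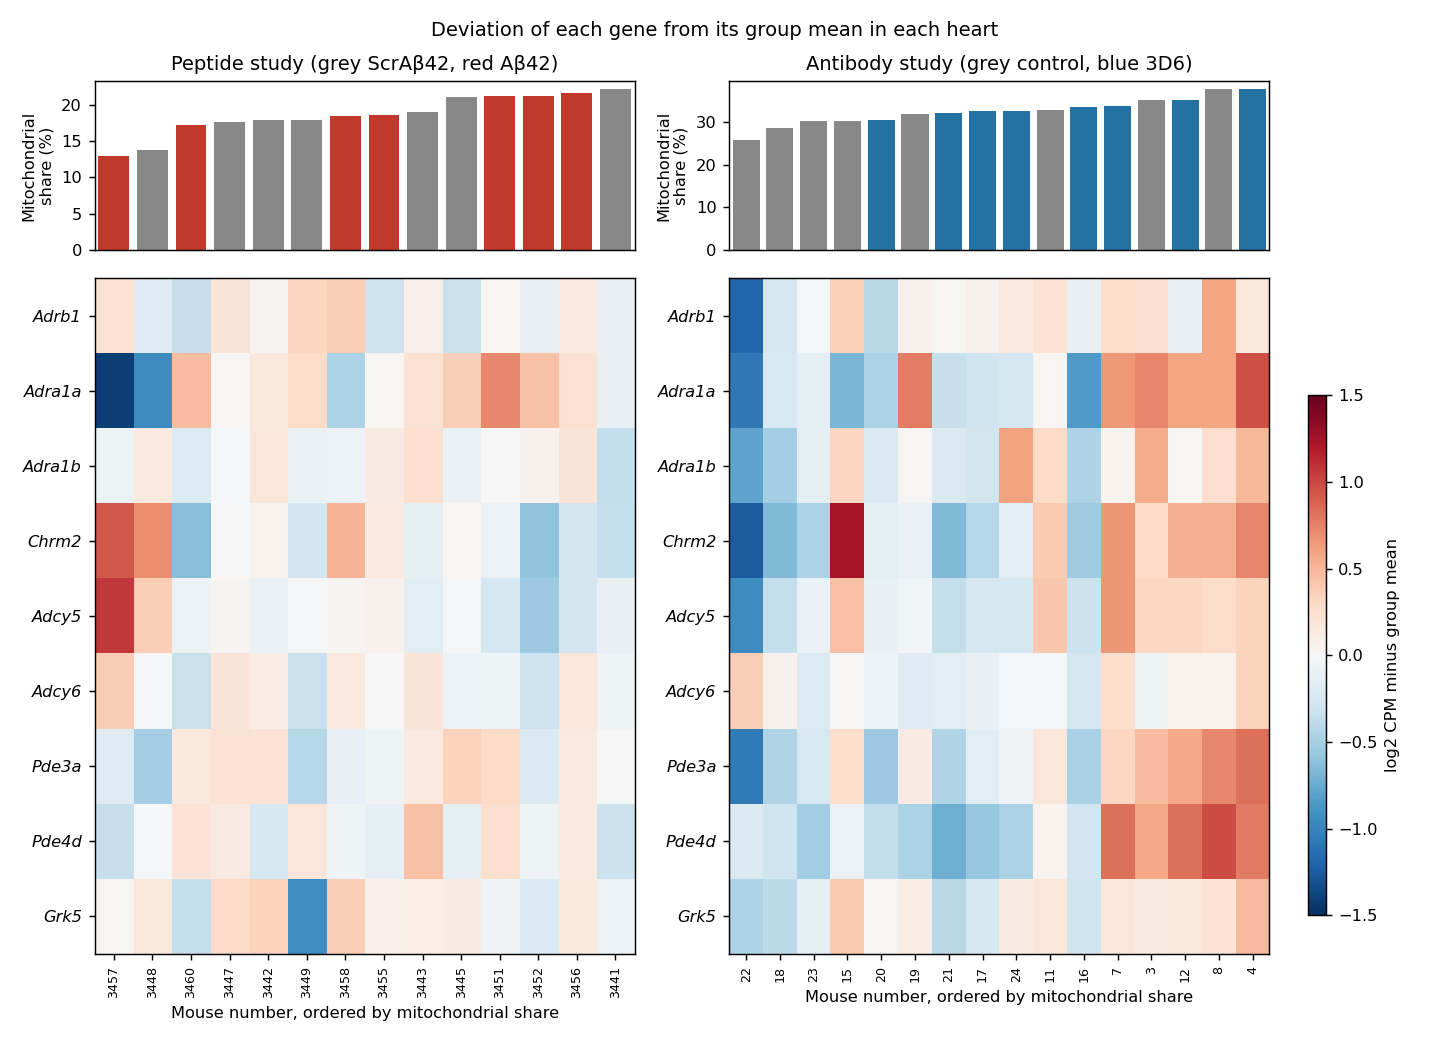
Log2 CPM of each gene (rows) minus its group mean in each heart (columns), ordered by the share of counts on mitochondrial genes (bars above, percent), for both studies. In the antibody study the columns turn from mostly blue to mostly red in the rows other than Adcy6, and in the peptide study Abeta42_3457 is low for Adra1a and high for Chrm2 and Adcy5.

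**Figure D4:**
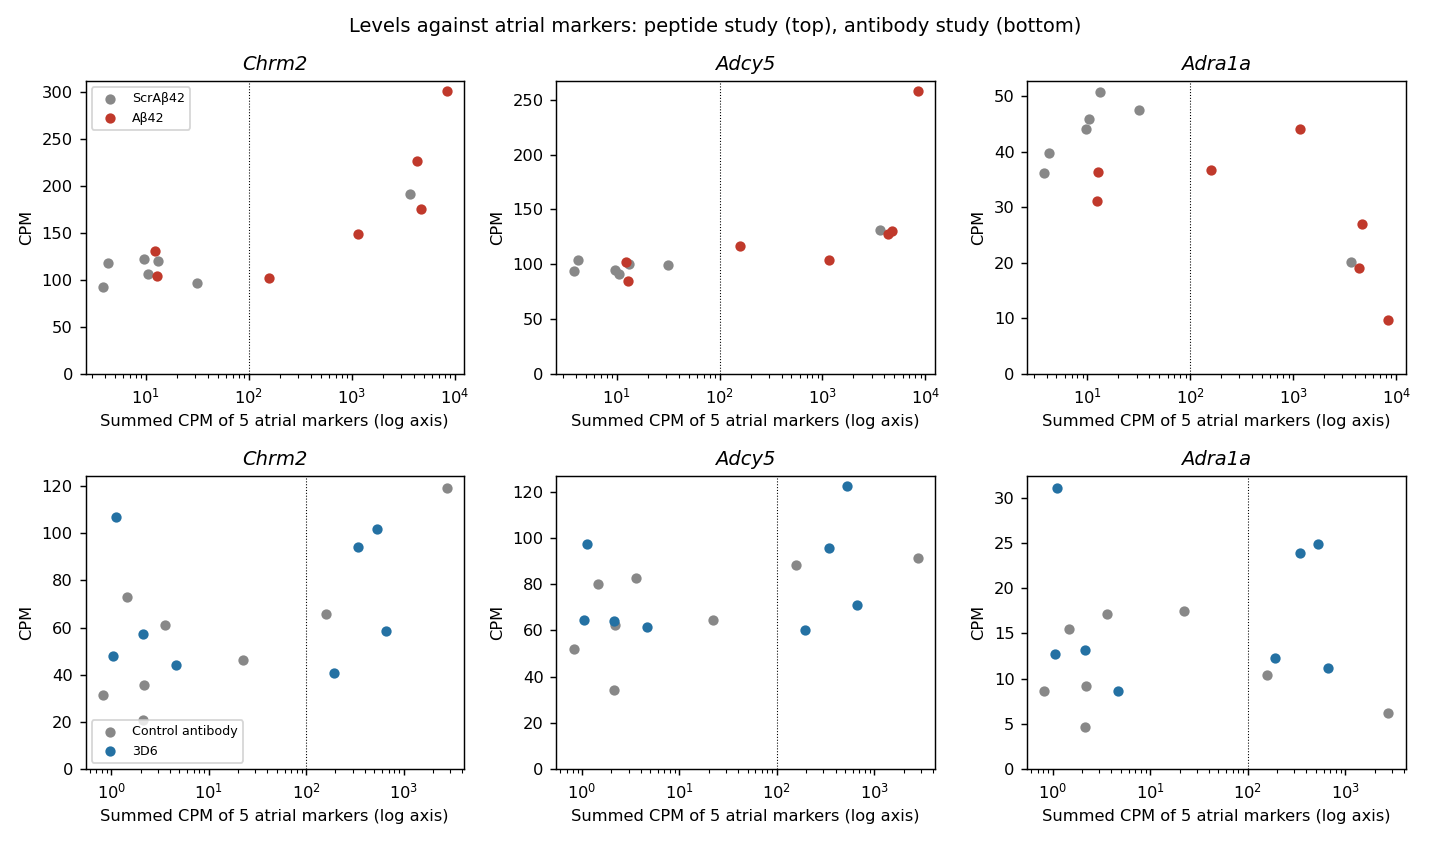
CPM of Chrm2, Adcy5 and Adra1a (vertical axes, from 0) against the summed CPM of 5 atrial markers (log axis) in each heart, peptide study above and antibody study below, with the dotted line at 100 CPM. In the peptide study the 4 hearts with the highest sums, from 3652 to 8387 CPM, have the 4 highest values of Chrm2 and the 4 lowest of Adra1a.

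Outside the pathway, the gene most like each of the 9 was taken as the gene with the highest smaller value of its correlations in the 2 studies (14 and 16 hearts, 6902 genes compared). For both Chrm2 and Adcy5 this was Tmx4, with 0.95 and 0.96 for Chrm2 and 0.89 and 0.95 for Adcy5, peptide study first. For Adra1a it was Lclat1 (0.96 and 0.90), for Pde3a Hipk3 (0.87 and 0.94) and for Grk5 Nedd4 (0.88 and 0.84). For Adcy6 it was Lamb2 (0.88 and 0.82), for Pde4d D2hgdh (0.82 and 0.85), for Adra1b Rad21 (0.73 and 0.84) and for Adrb1 Pcdh7 (0.79 and 0.76).

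Transcripts were resolved in the antibody study only. Of 48 transcripts of the 9 genes in the table, 18 passed the filter and 0 had an adjusted or an unadjusted p under 0.05 in edgeR, where 0% of 20857 transcripts passed the adjusted and 2.4% (500 transcripts) the unadjusted threshold. DESeq2 called 9 transcripts of all at an adjusted p under 0.05. In simulated data with a log2 fold change of 1, the edgeR fit recovered 28.5% of 200 changed transcripts. For genes it recovered 77.5% in the peptide and 88% in the antibody study, so absence of a call says less for transcripts. Chrm2-202, Adcy5-201 and Grk5-201 held 100% of their genes' counts to the digits shown, and Pde3a-201 held 97.8%. Adra1a was divided among Adra1a-203 with 41.0%, Adra1a-201 with 24.3% and Adra1a-205 with 22.4%, and Adcy6 among Adcy6-201 with 43.9%, Adcy6-205 with 25.6% and Adcy6-202, annotated as a retained intron, with 29.1%.

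For Pde4d, whose annotation lists 20 transcripts over 1504 kb, Pde4d-207 held 70.6% of the estimated counts. It starts at 109903106, near the 3' end of the gene, and has 10 exons. It is also annotated to end at 109953461, where no other listed transcript of the gene ends beyond 109951474. Reads past that point could be assigned to no other transcript, so the share does not measure use of the start. Its share was 62.1 ± 20.2% with control antibody and 72.6 ± 10.1% with 3D6 (SD, n = 8 each). Con_22 stood at 15.8%, and the other hearts lay from 54.1 to 78.6% with control antibody and from 52.7 to 84.9% with 3D6. Its log2 fold change was 0.43 ± 0.44 (SE, adjusted p = 1.00, edgeR). Pde4d-211, a transcript without a coding sequence in the annotation, held 15.0%. These shares rest on a mean of 59.9 and 12.7 estimated counts per heart.

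**Figure D5:**
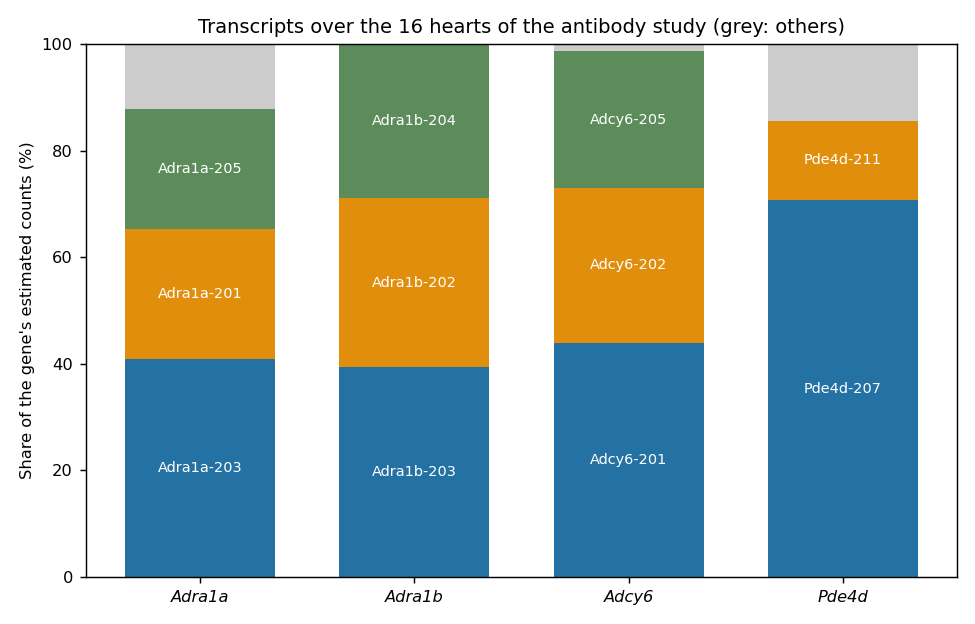
Share (percent, vertical axis) of the estimated counts of Adra1a, Adra1b, Adcy6 and Pde4d held by each transcript of at least 10%, pooled over the 16 hearts of the antibody study, with the other transcripts in grey. Pde4d-207 holds 70.6% of its gene, and no transcript of Adra1a or Adcy6 holds over 43.9%. Adra1b-202 and Adra1b-204 have the same sequence, so the split between them has no basis in the reads.

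Among 72 other genes of the pathway, in 7 lists, 58 were tested in each study, of which 0 had an adjusted and 2 an unadjusted p under 0.05 in each, against 6.51% of all genes with Aβ42 and 3.64% with 3D6. With Aβ42, 29 lay above 0 and 29 below, with a median log2 fold change of 0.00, and with 3D6 30 lay above and 28 below, with a median of 0.02. Of the 10 other adrenergic and muscarinic receptors, 2 were tested in each study, and the remaining receptors were too low. Of the receptor kinases and arrestins, 5 of 6 tested lay above 0 with Aβ42 and 1 of 5 with 3D6, none at an unadjusted p under 0.05. Of the G protein alpha subunits, 4 of 7 lay above 0 with Aβ42 and 3 of 7 with 3D6, none at an unadjusted p under 0.05.

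The pathway genes with the smallest p in the peptide study were Prkar2b, a regulatory subunit of protein kinase A, and Adcy1, a calmodulin-stimulated adenylyl cyclase. Prkar2b ranged from 1.54 to 6.51 CPM with ScrAβ42, and with Aβ42 it was at 62.6 CPM in Abeta42_3457, 19.5 in Abeta42_3451 and 1.12 to 5.52 in the other 5. Its log2 fold change was 2.35 ± 0.87 (SE, unadjusted p = 0.0160, adjusted p = 0.692, edgeR), and 0.94 without Abeta42_3457. Prkar2b stood at 1.09 by limma-voom (unadjusted p = 0.266) and at 0.49 with the atrial marker score as covariate (unadjusted p = 0.590, edgeR). Adcy1 ranged from 0.881 to 23.2 CPM with ScrAβ42 and from 1.98 to 88.0 CPM with Aβ42. The 5 hearts above 10 CPM, Abeta42_3457, Abeta42_3458, Abeta42_3455, ScrAbeta42_3448 and Abeta42_3451, had the 5 highest atrial sums. Its log2 fold change was 2.37 ± 0.89 (SE, unadjusted p = 0.0171, adjusted p = 0.701, edgeR), and 0.02 without the hearts of high atrial markers. Adcy1 stood at 3.69 without ScrAbeta42_3448 (unadjusted p = 0.00109, edgeR) and at 1.68 without Abeta42_3457 (unadjusted p = 0.0598, edgeR). By limma-voom it stood at 2.09 (unadjusted p = 0.113). On the lower side stood the cyclase Adcy9, at -0.37 ± 0.18 (SE, adjusted p = 0.763, edgeR), and Rapgef4, which encodes the cAMP-activated exchange factor Epac2, at -0.32 ± 0.16 (SE, adjusted p = 0.774, edgeR). Without Abeta42_3457 they stood at -0.24 and -0.19, and with the atrial marker score as covariate at -0.12 and -0.14.

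With 3D6 the smallest p were on the lower side. Pde8a, a phosphodiesterase of high affinity for cAMP, ranged from 17.8 to 22.1 CPM with control antibody and from 14.1 to 19.2 CPM with 3D6, and 5 of 8 3D6 hearts lay below all controls. Its log2 fold change was -0.23 ± 0.08 (SE, unadjusted p = 0.00917, adjusted p = 0.946, edgeR), -0.26 with the mitochondrial share as a covariate and -0.36 without the hearts of high atrial markers. Rapgef3, which encodes Epac1, ranged from 29.0 to 55.7 CPM with control antibody and from 24.8 to 33.9 CPM with 3D6, with a log2 fold change of -0.31 ± 0.13 (SE, unadjusted p = 0.0273, adjusted p = 0.946, edgeR), -0.19 without Con_22 (unadjusted p = 0.0693, edgeR) and -0.16 with the mitochondrial share as a covariate (unadjusted p = 0.103, edgeR). On the higher side were Pde4a at 0.17 ± 0.10 and Pde1c at 0.25 ± 0.15 (SE, adjusted p = 0.946 each, edgeR), and at 0.11 and 0.10 with the mitochondrial share as a covariate.

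Of the remaining marker lists, adipose markers had 3 of 5 tested genes at an unadjusted p under 0.05 with Aβ42, all higher, against 6.51% of all genes. These 3, Ucp1, Cidea and Plin1, were highest in Abeta42_3457, at 247, 101 and 84.5 CPM. Next came Abeta42_3451, at 52.0, 46.3 and 23.8 CPM. Ucp1 reached at most 0.193 CPM with ScrAβ42, so it passed the filter only through Aβ42 hearts. The adipose sum ranged from 482 to 695 CPM with ScrAβ42 and from 551 to 1331 CPM with Aβ42. Smooth muscle and pericyte markers had 1 of 6, with all 6 above 0, a median log2 fold change of 1.07, and sums of 714 to 1151 CPM with ScrAβ42, 767 to 999 CPM in 6 Aβ42 hearts and 2410.0 CPM in Abeta42_3457. Endothelial markers had 1 of 5 with Aβ42, with sums of 548 to 718 and 568 to 705 CPM, and 2 of 5 with 3D6, both lower, with sums of 560 to 743 CPM with control antibody and 513 to 658 CPM with 3D6. Fibroblast, blood and ventricular markers had none in either study, nor did the autonomic markers, of which 1 of 7 was tested with Aβ42 and 2 of 7 with 3D6. All 5 blood markers had a log2 fold change below 0 with Aβ42, with a median of -1.37 and sums of 800 to 15889 CPM with ScrAβ42 and 554 to 5055 CPM with Aβ42. ScrAbeta42_3448, which was highest of its group for Chrm2 and Adcy5 and lowest for Adra1a, had the highest blood sum and the highest fibroblast sum, 1881 CPM, of the peptide hearts. With 3D6, 5 of 5 endothelial, 5 of 5 fibroblast, 5 of 5 blood and 5 of 6 smooth muscle and pericyte markers had a log2 fold change below 0, with medians from -0.15 to -0.07. The part of these cells in the results was not tested. The autonomic list summed to 4.12 to 31.4 CPM over the peptide hearts and 1.46 to 11.8 CPM over the antibody hearts, in which Chat and Slc18a3, markers of cholinergic neurons, had no counts, which allows up to 0.361 to 0.469 CPM per heart.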

How the data were processed

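Left ventricular RNA was sequenced as stranded total RNA libraries. Per the methods of the study and the submitters' processing notes, the authors trimmed the reads and mapped them with Salmon to a GENCODE mouse transcriptome on GRCm38. The authors deposited whole-number counts by Ensembl gene for the peptide study and estimated counts by Ensembl transcript for the antibody study, both not normalised. How transcripts were summed for the peptide study is not given in the sources used here. Of the columns of the peptide table, 1 carries the name of no labelled mouse and was left out. The estimated counts were summed to genes through GENCODE vM21, an earlier release than the authors named, which lists 99.2% of the transcripts, and were rounded.

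Each study was fitted separately in edgeR 4.0.16 (R 4.3.3) with TMM factors, genes averaging 10 counts or more, the quasi-likelihood test and Benjamini-Hochberg adjustment, two-sided, after the scripts were tested on simulated data. Log2 CPM used a prior count of 2. Counts per heart range over the members from 33 to 4091, so counting error is largest for Adrb1 in the peptide study (42 to 104 counts per heart) and for Adra1a, Pde4d and Adrb1 in the antibody study (from 33, 46 and 52 counts). Replicates within groups all differed beyond sampling noise (chi-square per degree of freedom at least 3.36). Alternatives were DESeq2 1.42.0, limma-voom 3.58.1, RLE factors, total counts, no filter, at least 10 counts in every heart, atrial marker and mitochondrial covariates, and each mouse left out. Leaving out hearts of over 100 CPM of atrial markers was added after the data were seen. Named pathway genes were, per study, any with an adjusted p under 0.05 (none) and the 2 higher and 2 lower with the smallest p. A transcript was named at 10% or more of its gene's counts. Other genes named for likeness had a mean of at least 10 CPM in both studies. Permutation tests used scipy 1.17.1. The members and gene lists were chosen with earlier results of these data known. The kit marks strand, but how reads were assigned where genes overlap is not given in the sources used here.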

Additional observations from a re-analysis of the deposited data

Results flagged for a closer look

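Over the 9 genes and 4 ratios in 4 groups, 52 sets of hearts were checked for a heart far from the others, which chance gives in about 5% of sets, and 6 such values were found, in 4 hearts. In the ScrAβ42 group, ScrAbeta42_3448 stood at 191 CPM for Chrm2 (others 92.2 to 122 CPM), at 132 CPM for Adcy5 (others 91.0 to 104 CPM) and at a log2 ratio of Adra1a to Adra1b of -1.32 (others -0.24 to 0.26). In the Aβ42 group, Abeta42_3457 stood at 258 CPM for Adcy5 (others 84.7 to 130.2 CPM). In the control antibody group, Con_22 stood at 216 CPM for Adcy6 (others 144 to 175 CPM), and Con_15 at a log2 ratio of Adrb1 to Chrm2 of -2.42 (others -1.71 to -1.08). ScrAbeta42_3448, Abeta42_3457 and Con_15 had summed atrial markers of 3652, 8387 and 2768 CPM, and Con_22 had 2.13 CPM.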

How the results depend on the processing

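None of the 9 genes passed an adjusted p of 0.05 under any alternative or without any 1 mouse, and 412 of 432 refitted log2 fold changes kept their direction. The 20 that reversed were all of genes with a difference under 0.38. In the peptide study, Grk5 became 0.0060 with limma-voom. With the atrial marker covariate, Adcy5 became -0.0099, Adcy6 -0.017 and Pde3a 0.14, and without the hearts of high atrial markers Adcy5 became -0.057 and Adcy6 -0.035. In the antibody study, Pde4d became -0.035 with the mitochondrial covariate. With 1 mouse left out, the range was -0.11 to 0.029 for Pde3a, -0.14 to 0.030 for Grk5 and -0.034 to 0.087 for Adcy6 in the peptide study, and -0.081 to 0.037 for Adcy6 in the antibody study. The count of genes called in the peptide study was 12 with DESeq2 and 0 to 3 with 1 mouse left out (3 without Abeta42_3452, 1 without ScrAbeta42_3448). The 780 genes at an unadjusted p under 0.05 became 1475 with no filter (of 25203 tested, against 11985), 1253 with the mitochondrial covariate, 505 without the hearts of high atrial markers and 608 to 1267 with 1 mouse left out (1267 without ScrAbeta42_3448). The 447 of the antibody study became 1213 with no filter (of 25112 tested, against 12274), 280 without the hearts of high atrial markers and 256 to 771 with 1 mouse left out (256 without 3D6_4, 771 without Con_8). Transcripts called became 9 with DESeq2.

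The members at an unadjusted p under 0.05 in the peptide study, 2 of 9, became 3 with DESeq2 (731 of all genes), 3 with no filter, 1 with total counts (Pde4d, with 654 of all genes), 5 with the mitochondrial covariate, 1 without the hearts of high atrial markers (Adra1a), and 2 to 5 with 1 mouse left out (5 without ScrAbeta42_3448, 4 without Abeta42_3452, with 1267 and 956 of all genes). In the antibody study, 2 of 9 became 0 with the mitochondrial covariate (546 of 12274 genes then at an unadjusted p under 0.05, against 447), 1 without the hearts of high atrial markers (Adra1b), and 0 to 2 with 1 mouse left out (0 without 3D6_4 or Con_18, 1 without 3D6_7, Con_11, 3D6_12, Con_15, Con_22, Con_23 or 3D6_24). Over all genes the count was then 256 without 3D6_4 and 338 without Con_18. It was 380 without 3D6_7, 420 without Con_11, 355 without 3D6_12, 518 without Con_15, 367 without Con_22, 359 without Con_23 and 406 without 3D6_24. The difference in the log2 ratio of Pde3a to Pde4d in the peptide study ranged from -0.46 to -0.27 with 1 mouse left out, with an exact permutation p of 0.0256 without ScrAbeta42_3449 and 0.0373 without ScrAbeta42_3448. These 2 p are not adjusted over the 8 ratio tests. With all mice the exact permutation p was 0.0728, or 0.583 adjusted. The causes were not tested. No paired analysis was possible because the groups share no mouse numbers.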

Other observations

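Ucp1, the uncoupling protein of brown fat, was at 247 CPM in Abeta42_3457 and 52.0 CPM in Abeta42_3451, and at most 1.35 CPM in the other 12 hearts of the peptide study. These were also the hearts with the highest Prkar2b. Bmp10, a growth factor of the atria, was at 1205 CPM in Abeta42_3455 alone, against 62.3 CPM in the next heart, whereas Sln was at 497 CPM in Abeta42_3455 and at 1044 CPM in Abeta42_3457.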
